A study of Mus musculus with 28 samples.

Results

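The 8 IL-1 family receptor genes Il1r1, Il1r2, Il1rap, Il18r1, Il18rap, Il1rl1, Il1rl2 and Sigirr were followed in RNA-seq of sorted mouse epidermal stem cells. They were taken by gene symbol, and all 8 were found among the 47729 gene IDs of the count files. All 8 were also among the 17299 genes that passed the filter on low counts, but Il18rap (198 reads over all libraries) and Il1rl1 (264 reads) passed it only through the groups in which they were high. The series asked how epidermal stem cells, the basal cells that renew the epidermis, respond to skin inflammation and to later wounding. The series holds 28 samples, of which the 16 for RNA-seq (8 groups, 2 libraries each) enter this account; the 12 chromatin accessibility samples were not analysed here. All mice were C57BL/6, were labelled female, and had no engineered allele named in the labels. From postnatal day 60 their skin received either imiquimod, a Toll-like receptor 7 agonist that provokes psoriasis-like inflammation, or a control cream (vanicream) for 6 days. Cells were taken at day 6 (control and imiquimod), at day 30 after treatment (control and imiquimod, both unwounded), and 6 h and 12 h after full-thickness wounds of the back skin that were made at day 30 (control and imiquimod at each time). In every group the sort kept cells positive for integrin α6, integrin β1 and Sca1 and negative for CD34. Nothing in the labels says that 2 libraries of a group came from separate animals, so p-values measure the spread between libraries, which may be technical.

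Libraries held 23623968 to 76993427 counts, which were expressed as CPM, each library's total being adjusted by its TMM factor. The basal keratin genes Krt5 (14900 to 33500 CPM) and Krt14 (9900 to 33800 CPM) were high in every library and Cd34 ran from 0.207 to 11.1 CPM. Control library 1 and imiquimod library 1 of day 30 held at most 1 read of Xist and 7830 and 6023 reads of 4 Y-linked genes, against their female label. They are called male-typed here, and receptor results that use day 30 are given without them as well where this changes a call. Calls of ligand, signalling and marker genes that use day 30 were not checked in this way. Mitochondrial transcripts took 7.65% of counts in imiquimod library 1 of day 6 and 3.31% in control library 1 of day 6, against at most 2.48% elsewhere.

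IL-1 family receptors carry immunoglobulin domains outside the cell and, except for the decoy, a TIR domain inside it. A ligand-binding chain captures the cytokine and recruits an accessory chain, and the paired TIR domains recruit Myd88 and the IRAK kinases, which activate NF-kB and MAP kinases. In skin, keratinocytes release IL-1α and IL-33 on injury and make IL-36 cytokines in psoriasis-like inflammation. Il1r1 encodes the signalling receptor of IL-1α and IL-1β. Il1r2 encodes a decoy that binds IL-1 but lacks the signalling domain. Il1rap encodes the accessory chain shared by the receptors of IL-1, IL-33 and IL-36. Il1rl2 encodes the binding chain of the IL-36 receptor and Il1rl1 that of the IL-33 receptor (ST2). Il18r1 and Il18rap encode the binding and accessory chains of the IL-18 receptor, and Sigirr an inhibitory member.

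In the RefSeq annotation of GRCm38.p6, the assembly behind mm10, 6 of the 8 genes lay within 467 kb of chromosome 1, from position 40084692 to 40551707. Their order was Il1r2 (ENSMUSG00000026073.13, 40084692 to 40125230), Il1r1 (ENSMUSG00000026072.12, 40222480 to 40316201), Il1rl2 (ENSMUSG00000070942.8, 40324589 to 40367555), Il1rl1 (ENSMUSG00000026069.15, 40404864 to 40465418), Il18r1 (ENSMUSG00000026070.15, 40465552 to 40500854) and Il18rap (ENSMUSG00000026068.11, 40515362 to 40551707). Il1rap (ENSMUSG00000022514.14) lay on chromosome 16, 26581509 to 26730128, and Sigirr (ENSMUSG00000025494.7) on chromosome 7, 141091175 to 141100597. The spans of Il1r2, Il1rap and Il1rl2 overlap the lncRNA Gm16894, the lncRNA Gm20319 and the pseudogene Gm17970, and without strand the reads of overlapping genes cannot be told apart.

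RefSeq start sites gave 11 windows of 250 bases upstream of a start for 7 of the 8 genes, all but Sigirr. The windows were searched on both strands for AP-1 (TGANTCA), STAT (TTCNNNGAA) and NF-kB (GGGNNTTCC) letters, which are held by 6.75%, 7.02% and 4.98% of 32851 mouse promoter windows of that length. Matches were found in 3 of the 11 windows, 1 each of Il1r2, Il1r1 and Il18r1. The other windows of Il1r1 and Il18r1 held none, and the share of all windows with any of the 3 patterns was not taken. These 3 receptors were lower at day 6 of imiquimod, and a link with the matches was not tested. The 3 windows are printed on the plus strand, with the matches in capitals. They lie at chr1:40085843-40086092 (Il1r2, STAT letters at position -111 from the start site), chr1:40266336-40266585 (Il1r1, NF-kB letters at position -232, on the minus strand) and chr1:40465756-40466005 (Il18r1, STAT letters at positions -219 and -152). A match describes the letters only.
Il1r2: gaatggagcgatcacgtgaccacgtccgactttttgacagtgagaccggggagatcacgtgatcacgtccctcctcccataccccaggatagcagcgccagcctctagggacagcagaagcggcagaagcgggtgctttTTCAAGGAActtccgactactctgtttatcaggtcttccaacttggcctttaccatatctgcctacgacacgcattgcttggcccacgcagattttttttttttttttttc
Il1r1: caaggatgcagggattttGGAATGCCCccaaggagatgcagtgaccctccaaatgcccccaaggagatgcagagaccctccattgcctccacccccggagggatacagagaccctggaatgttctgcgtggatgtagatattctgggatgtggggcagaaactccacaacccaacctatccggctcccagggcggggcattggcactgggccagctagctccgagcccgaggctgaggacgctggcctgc
Il18r1: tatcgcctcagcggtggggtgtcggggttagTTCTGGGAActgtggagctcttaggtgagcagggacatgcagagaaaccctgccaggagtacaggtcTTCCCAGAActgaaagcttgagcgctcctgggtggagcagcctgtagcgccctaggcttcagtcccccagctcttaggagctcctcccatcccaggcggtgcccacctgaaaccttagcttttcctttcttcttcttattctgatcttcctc

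The level of each receptor in every group is described first, then the tests. A gene is called here when its adjusted p in edgeR's quasi-likelihood test, adjusted by Benjamini-Hochberg over all 17299 genes, was under 0.05. At day 6 of imiquimod 3 of the 8 receptors were lower and 1 was higher, where 15% of all genes tested were lower and 21.6% higher (36.6% in either direction). Wounding in control mice lowered 2 and raised 2 at 6 h (all genes 16.7% and 18%, together 34.7%) and lowered 2 and raised 3 at 12 h (14.3% and 16.5%, together 30.8%). Wounding after imiquimod lowered 2 and raised 3 at 6 h (18.6% and 20.1%, together 38.7%) and lowered 3 and raised 2 at 12 h (17.3% and 20.3%, together 37.6%). The rise at day 6 was Il18rap, those at 6 h in control were Il18r1 and Il1rl1, those at 12 h in control and at 6 h after imiquimod Il18r1, Il18rap and Il1rl1, and those at 12 h after imiquimod Il18r1 and Il18rap. Il18rap and Il1rl1 passed the filter through the groups in which they were high, so their calls stand in these counts and medians but support no change. With 8 genes these counts are not far from the shares over all genes, so the account rests on the named receptors. The median log2 change of the 8 was -0.48 at day 6 (0.10 over all genes), 0.39 and 0.23 at 6 h and 12 h in control wounds (0.01 and 0.02), and 0.35 and 0.29 after imiquimod (-0.02 and 0.02). The medians after imiquimod were the same, 0.35 and 0.29, with Il18rap at the lower bound given below. The wound comparisons at 6 h and 12 h share their day 30 libraries.

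**Figure D1:**
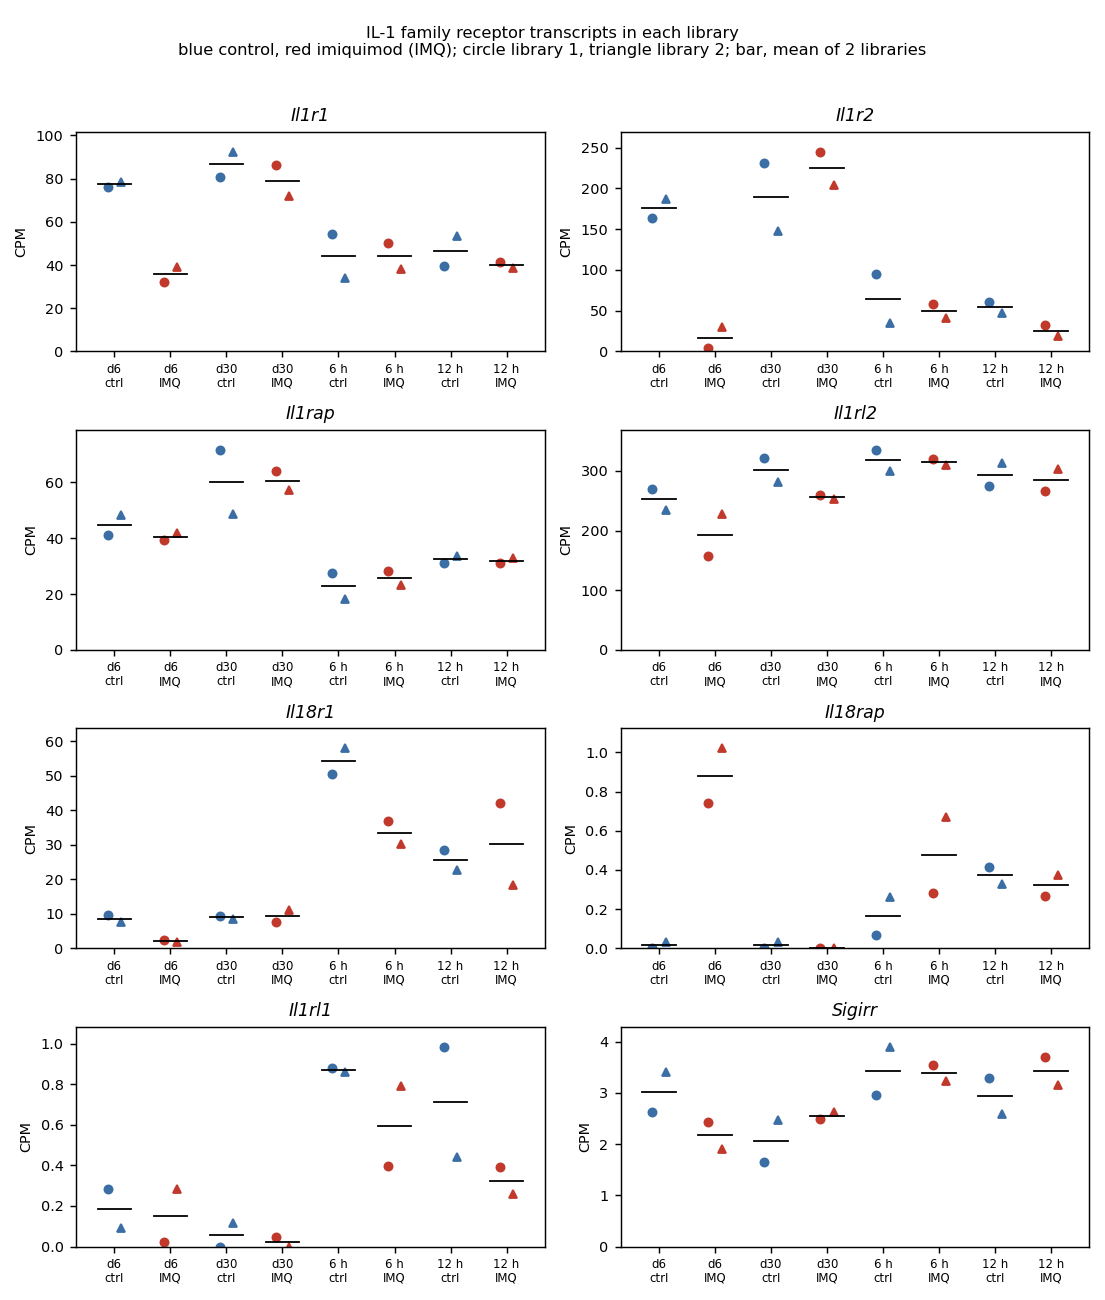
CPM (y axis, linear, from 0) of each receptor in the 16 libraries, by group on the x axis; points are single libraries and bars the mean of 2. Il1r1 and Il1r2 were high in day 6 control and day 30 skin, Il18r1 was highest in wounds, Il1rl2 stayed between 157 and 335 CPM, and Il18rap and Il1rl1 stayed near or under 1 CPM.

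Il1r1, the signalling IL-1 receptor, was lower in both inflamed and wounded skin than in the matching unwounded control. It stood at 76 and 78.5 CPM in day 6 control and at 32.2 and 39.3 CPM in day 6 imiquimod. Day 30 control held 80.8 and 92.4 CPM and day 30 imiquimod 86.1 and 72 CPM. In wounds it was 54.2 and 33.8 CPM (6 h control), 50 and 38 CPM (6 h imiquimod), 39.4 and 53.4 CPM (12 h control) and 41.5 and 38.5 CPM (12 h imiquimod). The levels thus formed a high set (day 6 control and both day 30 groups, 72 to 92.4 CPM) and a low set (day 6 imiquimod and all wounds, 32.2 to 54.2 CPM), with no overlap between the sets and overlap among most neighbours within each.

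At day 6 Il1r1 fell by 1.11 ± 0.22 on the log2 scale (SE, adjusted p = 0.00185 by edgeR), from a mean of 77.2 ± 1.78 to 35.8 ± 5 CPM (SD, n = 2). Against day 30 it fell by 0.97 ± 0.22 at 6 h (adjusted p = 0.00465) and by 0.90 ± 0.22 at 12 h (adjusted p = 0.00842) in control wounds. After imiquimod the falls were 0.84 ± 0.22 at 6 h (adjusted p = 0.00909) and 0.98 ± 0.22 at 12 h (adjusted p = 0.00395). The call at 6 h in control wounds was lost without wound library 2 (adjusted p = 0.0634), at 12 h without day 30 control library 2 (0.0531) or wound library 1 (0.103), and at 6 h after imiquimod without day 30 library 1 (0.0573) or wound library 2 (0.0931); the direction held in each. Without both male-typed day 30 libraries the change at 6 h after imiquimod was -0.74 (adjusted p = 0.0643).

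Il1r2, the IL-1 decoy, had the widest range of the receptors detected in every library, 62.4-fold between its lowest and highest library. It stood at 164 and 187 CPM in day 6 control and at 3.93 and 29.7 CPM in day 6 imiquimod. At day 30 it was at 231 and 148 CPM in control and 245 and 204 CPM after imiquimod. In wounds it was 95 and 34.5 CPM (6 h control), 58.7 and 41.6 CPM (6 h imiquimod), 60.9 and 47.3 CPM (12 h control) and 32 and 18.6 CPM (12 h imiquimod). All wound and day 6 imiquimod libraries lay below all day 6 control and day 30 libraries.

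At day 6 Il1r2 fell by 3.40 ± 0.82 on the log2 scale (adjusted p = 0.00951 by edgeR), from 176 ± 16.2 to 16.8 ± 18.2 CPM (SD, n = 2). The 2 imiquimod libraries differed widely: without library 1, the one with 7.65% mitochondrial counts, the change was -2.59 (adjusted p = 0.0125), without library 2 it was -5.51 (adjusted p = 0.000899), and in a fit of the 4 day 6 libraries alone it was -3.54 (adjusted p = 0.0584). Whether RNA quality has a part in this was not tested.

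Wounding after imiquimod lowered Il1r2 at 12 h by 3.15 ± 0.80 (adjusted p = 0.0128), a call that was lost without either wound library (0.0571 without library 1 and 0.105 without library 2). The other wound changes of Il1r2 were -2.16 ± 0.77 at 6 h after imiquimod (adjusted p = 0.0507, and 0.0369 with the replicate number as a block), -1.54 ± 0.76 at 6 h in control (0.143) and -1.81 ± 0.76 at 12 h in control (0.102). These 3 did not pass, although the libraries did not overlap. By DESeq2 the change at 6 h after imiquimod passed (adjusted p = 0.0176) and those in control did not. In edgeR fits of only the libraries compared, 6 h after imiquimod (0.00125) and 12 h in control (0.011) passed, and 6 h in control did not. In a fit of the 12 libraries after day 6, an alternative added after the values were seen, the changes were nearly the same (-2.17, -1.54 and -1.81) and all 3 passed, with adjusted p = 0.00654, 0.0293 and 0.0179. Leaving out either day 6 imiquimod library had the same effect, with adjusted p = 0.00484 and 0.00509 (6 h after imiquimod), 0.0268 and 0.0278 (6 h control) and 0.0151 and 0.0157 (12 h control).

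Decoy transcripts were counted against those of the signalling receptor within each library, a ratio that scaling does not move. In the day 6 control libraries there were 2.16 and 2.39 Il1r2 reads per Il1r1 read. Imiquimod libraries of the same day had 0.122 and 0.755. At day 30 the ratio was 2.86 and 1.61 in control and 2.84 in both libraries after imiquimod. In control wounds it was 1.75 and 1.02 at 6 h and 1.54 and 0.885 at 12 h. In wounds after imiquimod it was 1.17 and 1.09 at 6 h and 0.773 and 0.483 at 12 h. The ratio in every day 6 imiquimod library and every wound library after imiquimod lay below that of every day 6 control and day 30 library, while control wounds at 6 h reached 1.75 and overlapped day 30 control. Read counts are not corrected for transcript length, so the ratio compares libraries and does not say which receptor was the more abundant.

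**Figure D2:**
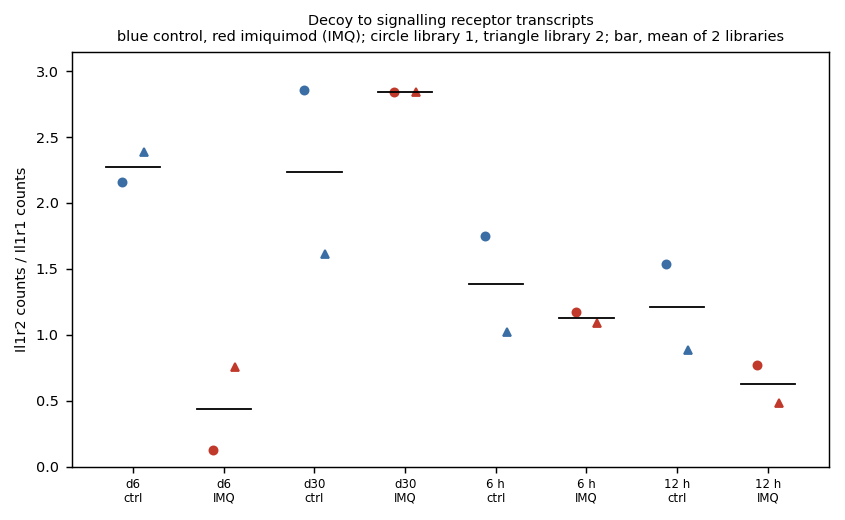
Reads of the decoy Il1r2 per read of Il1r1 (y axis, linear, from 0) in each of the 16 libraries by group; points are libraries and bars the mean of 2. The group mean was 2.27 in day 6 control, 0.438 in day 6 imiquimod, 2.23 and 2.84 at day 30, and 0.628 to 1.39 in wounds.

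Among markers of other cells, Krt15 of the follicle bulge list moved with Il1r1 and Il1r2, while the list as a whole went both ways. The sum of its 5 genes, which Krt15 dominates, was 6560 to 10200 CPM in day 6 control, 504 to 616 CPM in day 6 imiquimod, 5130 to 10400 CPM at day 30 and 1020 to 2380 CPM in wounds, and none was at 0 in any library. At day 6, 1 of the 5 fell and 1 rose: Krt15, a keratin of basal and bulge cells, went from 8340 to 461 CPM (-4.18 ± 0.46, adjusted p = 3.6e-05 by edgeR) and Sox9, a bulge transcription factor, from 15.3 to 83.6 CPM (2.45 ± 0.36, adjusted p = 0.00034). Krt15 also fell in all 4 wound comparisons (-1.95, -1.48, -2.83 and -2.58), and so did Sox9 (-1.28, -1.24, -1.88 and -1.57). Lgr5, a stem cell marker of the bulge, rose in both control comparisons (1.99 and 1.86) and at 12 h after imiquimod (2.09), and Lhx2, a bulge transcription factor, rose at 6 h in control (2.03). The list's median change was -0.16 at day 6, 1.88 and 0.79 in control wounds and -1.42 and -1.17 after imiquimod. Fibroblast markers, another source of Il1r1 transcripts in skin, summed to 268 to 645 CPM in day 6 control, 183 to 541 CPM in day 6 imiquimod, 115 to 319 CPM at day 30 and 56.9 to 166 CPM in wounds. Single fibroblast markers went other ways: Dcn (4.40) and Pdgfra (4.77) rose at 6 h in control and none of the 8 fell (median 3.18), Pdgfra rose (3.78) and Fn1 fell (-2.12) at 12 h in control, and after imiquimod the 1 called was Fn1 at 12 h (-3.52). The part of these cells in the receptor changes was not tested. In sorted bulk samples, fewer cells of a type and less RNA per cell cannot be told apart.

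Il1rap, the accessory chain that Il1r1, Il1rl1 and Il1rl2 share, fell on wounding; no change was called at day 6. It stood at 41.1 and 48.5 CPM in day 6 control and at 39.3 and 41.9 CPM in day 6 imiquimod, which overlap. Day 30 held 71.6 and 48.6 CPM (control) and 64 and 57.3 CPM (imiquimod). Wounds held 27.4 and 18.3 CPM at 6 h in control, 28.1 and 23.3 CPM at 6 h after imiquimod, 31.2 and 33.6 CPM at 12 h in control, and 31 and 32.8 CPM at 12 h after imiquimod. All 8 wound libraries thus lay below all 8 others.

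The day 6 change of Il1rap was -0.14 ± 0.21 (adjusted p = 0.632 by edgeR). Il1rap fell by 1.39 ± 0.21 at 6 h in control wounds (adjusted p = 0.000362) and by 1.23 ± 0.21 at 6 h after imiquimod (0.000584). At 12 h it fell by 0.89 ± 0.21 in control wounds (0.00624) and by 0.93 ± 0.21 after imiquimod (0.00381). The 12 h call in control was lost without day 30 control library 1, one of the male-typed libraries (-0.60, adjusted p = 0.0705), without both male-typed libraries (-0.62, 0.0702), and without wound library 1 (-0.82, 0.0574). From 6 h to 12 h in control wounds the change was 0.50 ± 0.21 (adjusted p = 0.299), or 0.53 with the replicate number as a block (adjusted p = 0.0389).

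Il1rl2, the IL-36 binding chain, varied least of the 8, 2.13-fold over all libraries. It stood at 270 and 235 CPM in day 6 control, 157 and 227 CPM in day 6 imiquimod, 321 and 282 CPM in day 30 control, and 260 and 253 CPM in day 30 imiquimod. Wounds ran from 266 to 335 CPM over 8 libraries. The day 6 imiquimod libraries were the 2 lowest of the 16, and the other groups overlapped or adjoined one another.

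The day 6 change of Il1rl2 was -0.39 ± 0.18 (adjusted p = 0.0966 by edgeR). It passed without imiquimod library 2 (-0.71, adjusted p = 0.0111), without the male-typed day 30 libraries (-0.52, 0.0354) and with a stricter filter of at least 1 CPM in 2 libraries (-0.52, 0.0248). Wound changes were 0.08 ± 0.17 and -0.04 ± 0.17 in control and 0.30 ± 0.17 and 0.15 ± 0.17 after imiquimod, at 6 h and 12 h, none of them called.

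Il18r1, the IL-18 binding chain, moved in opposite directions in inflammation and in wounds. It stood at 9.65 and 7.45 CPM in day 6 control and at 2.26 and 1.78 CPM in day 6 imiquimod. Day 30 held 9.46 and 8.41 CPM (control) and 7.7 and 11.2 CPM (imiquimod). Wounds held 50.6 and 57.9 CPM at 6 h in control, 36.8 and 30.2 CPM at 6 h after imiquimod, 28.6 and 22.7 CPM at 12 h in control, and 42.1 and 18.3 CPM at 12 h after imiquimod. The order was therefore day 6 imiquimod, then day 6 control and both day 30 groups, which overlap, then the wounds, with 6 h control wounds above all others.

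Il18r1 fell by 2.07 ± 0.35 at day 6 (adjusted p = 0.00067 by edgeR), from 8.55 to 2.02 CPM. It rose by 2.60 ± 0.34 at 6 h in control wounds (adjusted p = 0.00016), from 8.93 to 54.2 CPM, and by 1.52 ± 0.33 at 12 h (0.00433). After imiquimod it rose by 1.82 ± 0.33 at 6 h (0.00102) and by 1.67 ± 0.33 at 12 h (0.00185). All 5 calls held whichever single library was left out. The 12 h control wounds stood at 25.6 CPM against 54.2 CPM at 6 h, a change of -1.08 ± 0.32 (adjusted p = 0.146) that passed with the replicate number as a block (-1.07, adjusted p = 0.0283), by DESeq2 (-1.11, 0.0261) and in a fit of the libraries compared (-1.09, 0.0306).

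Single markers of T cells and neutrophils were higher in wounds beside Il18r1, not their lists. T cell markers (7 of 8 found) summed to 99.4 to 240 CPM at day 30 and 315 to 447 CPM in wounds, almost all of it Thy1, and to 78.1 to 144 and 29.4 to 62.6 CPM in the day 6 groups. Neutrophil markers (7) summed to 0.31 to 2.13 CPM at day 30 and 70.6 to 184 CPM in wounds, almost all of it Cxcr2, and to 0.24 to 2.65 and 12.8 to 26.3 CPM in the day 6 groups. Of 3 T cell markers tested none was called in control wounds, and Thy1 alone rose after imiquimod (1.46 and 1.38). Of 2 neutrophil markers tested Cxcr2 rose in all 4 comparisons. The defining markers were at or near 0: Cd3e reached at most 0.189 CPM, Ly6g at most 0.112 CPM, and Elane was at 0 in all 16 libraries.

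The opposite directions of Il18r1 were tested directly, in comparisons added after the values were seen. The day 6 imiquimod effect minus the control wound effect, which share no library, was -4.68 ± 0.48 for Il18r1 against 6 h wounds (adjusted p = 0.000124 by edgeR) and -3.60 ± 0.48 against 12 h wounds (0.00124). Il1rap differed by 1.25 ± 0.29 against 6 h wounds (0.0111), a call lost without day 6 control library 1 (1.09, 0.0555) and without the male-typed libraries (0.84, 0.0767). These were 2 of 8 receptors against 6 h wounds, where 19.1% of all genes passed, and 1 of 8 against 12 h wounds, where 11.2% passed. Il1r1 did not pass in either.

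**Figure D3:**
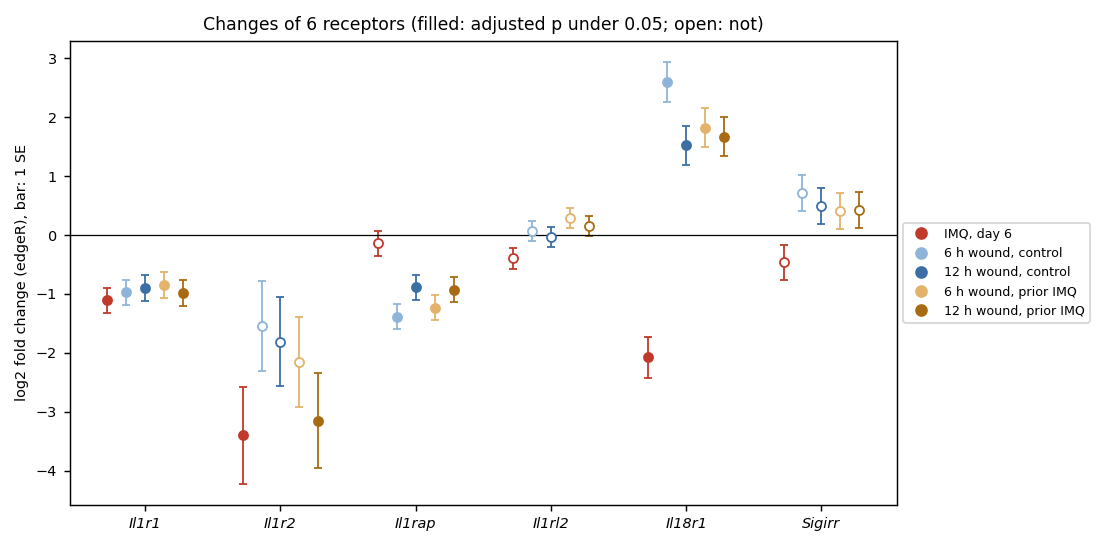
edgeR log2 fold change (y axis, linear) of 6 receptors on the x axis in 5 comparisons, coloured by comparison, with bars of 1 SE; filled points had an adjusted p under 0.05. Il1r1 and Il1rap lay below 0 in all 5, Il1rap near it at day 6 (-0.14, open), and Il18r1 was at -2.07 at day 6 and at 1.52 to 2.60 in wounds; Il18rap and Il1rl1 are left out because some of their groups hold 0 to 4 reads.

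Il18rap, the accessory chain without which IL-18 does not signal well, was rare. It had 0 and 0.0301 CPM in day 6 control, 0.741 and 1.02 CPM in day 6 imiquimod, 0 and 0.0295 CPM in day 30 control, and 0 in both libraries of day 30 imiquimod. Wounds held 0.0676 and 0.262 CPM (6 h control), 0.282 and 0.671 CPM (6 h imiquimod), 0.415 and 0.33 CPM (12 h control) and 0.269 and 0.372 CPM (12 h imiquimod). It was thus highest in day 6 imiquimod, where its partner Il18r1 was lowest.

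Il18rap had 69 reads in day 6 imiquimod against 1 in control, a ratio of 76.1 with a 95% counting interval of 13.2 to 3050. Wounding after imiquimod gave 39 reads at 6 h and 37 at 12 h against 0 at day 30, at least 6.43-fold and 5.7-fold higher against a floor of 3 counts over the group. Control wounds had 11 reads at 6 h and 40 at 12 h against 1 at day 30, ratios of 7.05 (1.03 to 304) and 19.8 (3.35 to 801). These values describe the libraries, and no p is given for them because the high groups admitted the gene to the test. The calls counted above were lost at 12 h in control without day 30 control library 1 or 2, wound library 1 or both male-typed libraries, and at 12 h after imiquimod without day 30 library 2. Intervals and floors cover counting error only.

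Markers of other cells are given beside Il18rap, and their lists went different ways. Macrophage markers summed to 10.5 to 18.9 CPM in day 6 control and 74.3 to 88.6 CPM in day 6 imiquimod, where 8 of 10 rose, against 3.12 to 4.66 CPM at day 30 and 7.23 to 17.5 CPM in wounds. In control wounds 6 of the 10 rose and 1 fell at 6 h, and 3 rose and 1 fell at 12 h. After imiquimod 4 rose at 6 h and 2 at 12 h. The wound sums overlapped those of day 6 control, where Il18rap had 1 read. Langerhans and dendritic markers summed to 37.1 to 40.2 CPM and 77.6 to 148 CPM in the day 6 groups, with 1 of 6 tested called higher, 7.61 to 40 CPM at day 30 and 13.3 to 63.2 CPM in wounds. Of the markers that define NK cells, Ncr1 was at 0 in 15 of 16 libraries and Klrb1c in 16. The sum of the NK and innate lymphoid list, 42.2 to 682 CPM, was almost all Rora, which epidermal cells also express. At day 6 that sum was lower with imiquimod (42.2 to 120 CPM) than in control (209 to 245 CPM). The part of infiltrating cells in the Il18rap change was not tested.

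Il1rl1, the IL-33 receptor ST2, was also rare and was seen mainly in wounds. In control it had 0.283 and 0.0902 CPM at day 6, under imiquimod 0.02 and 0.286 CPM at day 6, 0 and 0.118 CPM in day 30 control, and 0.0453 and 0 CPM in day 30 imiquimod. Wounds held 0.879 and 0.862 CPM (6 h control), 0.397 and 0.79 CPM (6 h imiquimod), 0.985 and 0.44 CPM (12 h control) and 0.392 and 0.258 CPM (12 h imiquimod). The lowest wound library lay above all day 30 libraries and below the highest library of each day 6 group.

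In control wounds Il1rl1 had 75 reads at 6 h and 70 at 12 h against 4 at day 30, ratios of 12 (95% counting interval 4.51 to 45.3) and 8.66 (3.23 to 32.7). After imiquimod it had 51 reads at 6 h and 34 at 12 h against 1 at day 30, ratios of 25.2 (4.33 to 1020) and 15.7 (2.64 to 638). As for Il18rap, the high groups admitted the gene to the test and no p is given. The calls counted above were lost without day 30 control library 1 or either wound library (6 h control), without day 30 control library 1, either wound library or either 12 h imiquimod library (12 h control), and without day 30 library 2 or wound library 2 (6 h after imiquimod). Both control calls were also lost without the male-typed libraries.

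Mast cells carry ST2, and markers of that list rose beside Il1rl1 in wounds, though not all were highest there. Of 6 tested, 5 rose at 6 h in control and 2 in each other wound comparison. At day 6, 2 of the 6 also rose with imiquimod, while Il1rl1 had 10 reads there against 19 in control. The 9 genes summed to 0.189 to 0.443 CPM at day 30 and 12.8 to 23.1 CPM in wounds, with 2.1 to 3.78 CPM and 8.03 to 9.51 CPM in the day 6 groups. In wounds the sum was led by Hdc (9.85 to 20 CPM) and Cma1 (1.49 to 2.91 CPM), while Fcer1a, a defining marker, was at 0 in all 16 libraries and Ms4a2 reached at most 0.0707 CPM. Cpa3, Mcpt4 and Tpsb2, also of the list, were highest in day 6 imiquimod library 2, at 1.71, 2.54 and 0.793 CPM. Il1rl1 was at 0.286 CPM in that library. The part of mast cells in the Il1rl1 change was not tested.

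Sigirr, the inhibitory member, was low and passed no test in the main fit. It stood at 2.63 and 3.4 CPM in day 6 control, 2.44 and 1.9 CPM in day 6 imiquimod, 1.66 and 2.48 CPM in day 30 control, and 2.49 and 2.62 CPM in day 30 imiquimod. Wounds ran from 2.59 to 3.9 CPM. The day 6 change was -0.46 ± 0.30 (adjusted p = 0.253 by edgeR), and the wound changes were 0.71 ± 0.31 (0.0874) and 0.49 ± 0.30 (0.241) in control and 0.41 ± 0.30 (0.307) and 0.42 ± 0.30 (0.295) after imiquimod. The day 6 effect minus the 6 h control wound effect was -1.18 ± 0.43 (adjusted p = 0.0719 by edgeR). That difference passed by DESeq2 (-1.17, 0.0389) and in edgeR with the filter of 1 CPM in 2 libraries (-1.25, 0.049).

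Prior imiquimod was compared with control at each later state, which asks whether the receptors keep a trace of the inflammation. No receptor was called at day 30 (0 of 8, with 0.0116% of all genes called), at 6 h (0.0347%), at 12 h (0%) or in the mean of the 3 (0.202%). At unadjusted p under 0.05 there were 0, 1, 0 and 0 receptors and 716, 1091, 425 and 1143 genes; DESeq2 called 0 receptors in each and 20, 132, 27 and 166 genes. The 1 receptor was Il18r1 in 6 h wounds, at 54.2 CPM in control and 33.5 CPM after imiquimod (-0.69 ± 0.32, unadjusted p = 0.0478 and adjusted p = 0.782 by edgeR), with no overlap between libraries. Il1r2 in 12 h wounds also did not overlap, at 54.1 against 25.3 CPM (-1.10 ± 0.75, adjusted p = 1 by edgeR; 4.61e-06 in a fit without the filter on low counts). At day 30 the differences were -0.13 ± 0.22 for Il1r1, 0.24 ± 0.74 for Il1r2, 0.01 ± 0.21 for Il1rap, 0.09 ± 0.33 for Il18r1 and -0.23 ± 0.17 for Il1rl2, with overlapping libraries for all of these but Il1rl2. Libraries of Il18rap and Il1rl1 in 6 h wounds, Il1rl1 in 12 h wounds and Sigirr at day 30 did not overlap either. Full separation of 2 libraries from 2 reaches no exact two-sided permutation p below 0.333, so by itself it shows no trace. The share of all genes whose libraries separate in this way was not taken.

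The imiquimod effect at day 6 was set against that at day 30. It was more negative at day 6 by 3.65 ± 1.08 for Il1r2 (a difference of -3.65, adjusted p = 0.0384 by edgeR), by 0.98 ± 0.31 for Il1r1 (-0.98, 0.0384) and by 2.16 ± 0.48 for Il18r1 (-2.16, 0.00739). These were 3 of 8 receptors lower and none higher; over all genes 8.82% were lower and 13.7% higher (22.5% in all). The Il18r1 difference held whichever library was left out, whereas that of Il1r1 was lost in 6 of 16 such fits (adjusted p up to 0.105) and that of Il1r2 in 12 of 16 (up to 0.11). Without both male-typed libraries they were -0.88 (0.175) and -4.01 (0.0878).

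The wound response did not differ by a called amount between mice with and without prior imiquimod, for 0 of 8 receptors at 6 h and 0 of 8 at 12 h (0% of all genes at both; 1057 and 503 genes at unadjusted p under 0.05 by edgeR, none of them a receptor). DESeq2 called 32 and 1 genes, again no receptor. From 6 h to 12 h no receptor was called in control wounds (0.647% of all genes) or after imiquimod (0.173%). There were 2 and 0 receptors and 2381 and 1858 genes at unadjusted p under 0.05, and DESeq2 called 1 receptor (Il18r1, control) and 0 receptors, and 698 and 365 genes.

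The ligands were read beside their receptors; the files name Il36a, Il36b, Il36g and Il36rn by the older symbols Il1f6, Il1f8, Il1f9 and Il1f5. Of 10 ligand and antagonist genes, 5 rose and none fell at day 6 (median log2 change 1.31, against 0.10 over all genes), where 21.6% of all genes rose and 15% fell. Il36g, an IL-36 agonist, rose from 7.21 and 4.99 CPM in control to 71.4 and 120 CPM in imiquimod (3.96 ± 0.47, adjusted p = 0.000104 by edgeR). The other IL-36 agonists rose as well, Il36b from 0.136 to 9.85 CPM (6.03 ± 1.13, 0.00159) and Il36a from 1 library with reads at 0.0177 CPM to 4.65 and 7.39 CPM (adjusted p = 0.00047). Il18 rose from 0.935 to 9.86 CPM (3.40 ± 0.90, 0.0128) and Il1b from 0.969 to 2.9 CPM (1.55 ± 0.55, 0.0423). So at day 6 IL-36 agonist transcripts were higher with their receptor Il1rl2 at 192 against 253 CPM (not called), and Il18 was higher with its receptor Il18r1 lower.

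On wounding no ligand gene rose. The antagonists Il36rn and Il1rn fell in all 4 comparisons, and other ligand genes fell in some. Il36rn, the IL-36 antagonist, fell by 3.44 ± 0.69 at 6 h in control (adjusted p = 0.00372 by edgeR), from 27.1 and 79.2 CPM at day 30 to 7.56 and 1.99 CPM. Il1rn, the IL-1 receptor antagonist, fell by 1.86 ± 0.25 at 12 h in control (0.000239), from 234 to 64.7 CPM. Il18 (-2.59) and Il36a (-2.91) also fell at 6 h in control (adjusted p = 0.046 and 0.0441 by edgeR). Their day 30 control libraries differed widely, at 0.804 and 7.26 CPM for Il18 and 0.0473 and 2.01 CPM for Il36a. After imiquimod Il1f10 fell as well (-3.05 at 6 h and -4.24 at 12 h, adjusted p = 0.0482 and 0.0164 by edgeR). It was rare, at 0.317 and 2.41 CPM in the day 30 imiquimod libraries and 0.243 and 0.0395 CPM in the 6 h wounds. The size of its fall thus rested mainly on day 30 library 2. Counts of genes lower among the 10 were 4 and 2 in control wounds and 3 and 3 after imiquimod, at 6 h and 12 h, where 16.7%, 14.3%, 18.6% and 17.3% of all genes fell. The medians were -2.53, -1.22, -0.64 and -0.07, against 0.01, 0.02, -0.02 and 0.02 over all genes. Suprabasal markers moved with the antagonists, at a sum of 15000 to 29400 CPM at day 30 and 5000 to 8830 CPM in wounds (6 genes), and their part in the result was not tested. Il33, the ligand of Il1rl1, stood at 221 CPM in day 30 control, 100 CPM at 6 h and 322 CPM at 12 h, neither called. Il18bp, which captures IL-18 outside the cell, rose in all 4 wound comparisons, by 1.60 and 1.65 in control and 0.93 and 1.39 after imiquimod; it was the 1 tested gene of its list of 3.

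**Figure D4:**
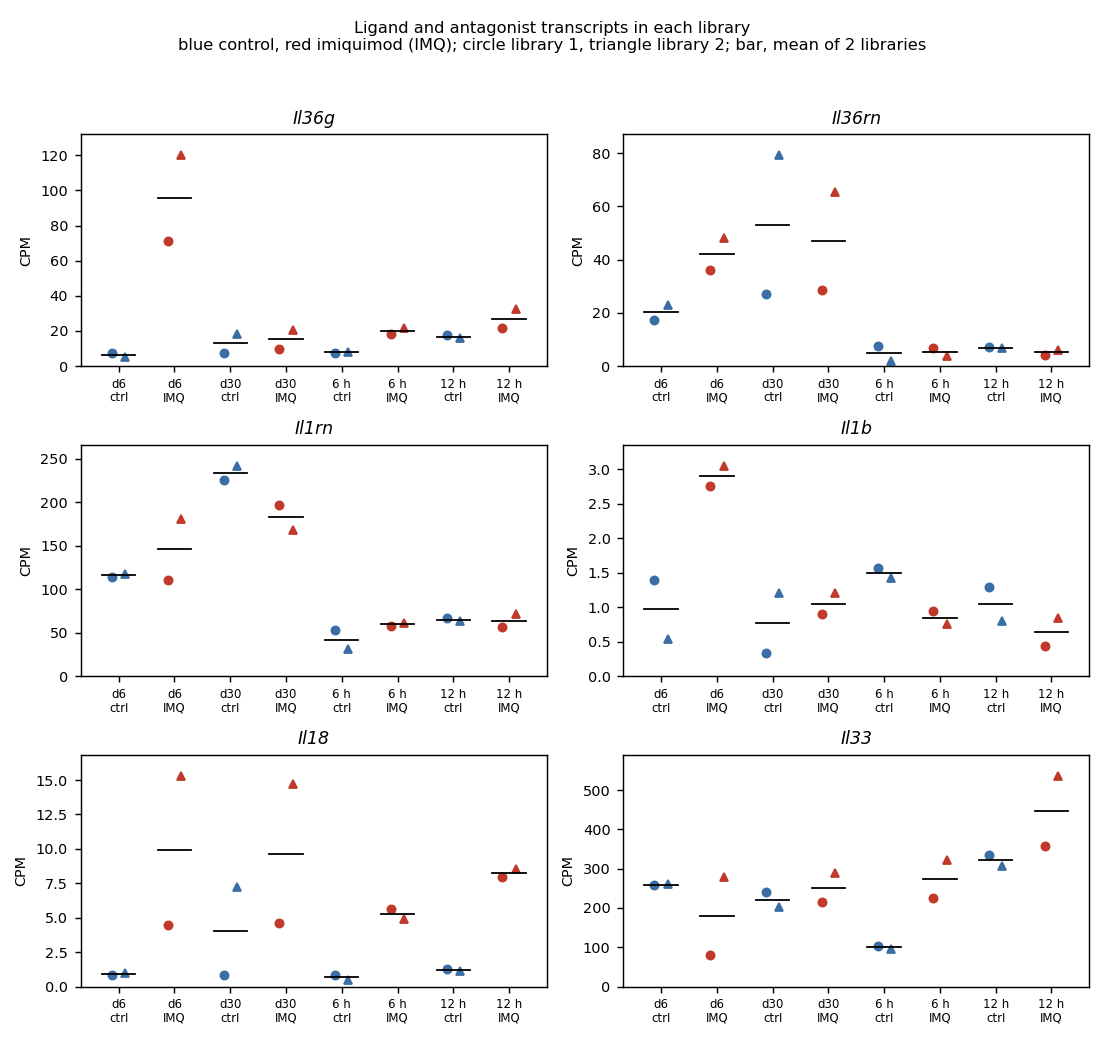
CPM (y axis, linear, from 0) of 6 ligand or antagonist genes in the 16 libraries by group; points are libraries and bars the mean of 2. Il36g was highest in day 6 imiquimod at 71.4 and 120 CPM, and Il36rn and Il1rn were lower in every wound library than in every day 30 library.

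Downstream of the receptors, 18 genes of proximal signalling were tested. At day 6, 7 rose and 1 fell (median 0.25), where 21.6% of all genes rose and 15% fell. The adaptor Tirap, which serves Toll-like receptors (2.44 ± 0.36), Irak3, an inhibitory IRAK (1.46 ± 0.21), and Tifa, which acts with Traf6 (1.41 ± 0.46) led those higher, and the ubiquitin ligase Peli2 (-1.81 ± 0.30) was lower. In wounds 3 rose and 4 fell at 6 h in control, 3 and 5 at 12 h in control, 5 and 2 at 6 h after imiquimod, and 4 and 5 at 12 h after imiquimod. Over all genes 18% rose and 16.7% fell, 16.5% and 14.3%, 20.1% and 18.6%, and 20.3% and 17.3%, in the same order. The kinase Irak4 rose in all 4, by 1.29, 1.22, 1.47 and 1.42, and Tollip, an adaptor that restrains IL-1 receptor signalling, fell in all 4 (-1.30, -1.29, -1.01 and -1.08).

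Of 16 genes of the NF-kB kinase, its subunits and feedback, 3 rose and 4 fell at day 6 (median -0.30), beside 21.6% and 15% of all genes. Bcl3, a nuclear IκB protein (2.50 ± 0.41), and Zc3h12a, an RNase that limits inflammatory transcripts (1.84 ± 0.46), rose; the subunit gene Relb (-1.19 ± 0.24) fell. In control wounds 3 rose and 7 fell at 6 h, and 1 rose and 6 fell at 12 h. After imiquimod 3 rose and 4 fell at 6 h, and 2 rose and 4 fell at 12 h. In all, 10 and 7 of 16 were called in control wounds and 7 and 6 after imiquimod, where 34.7%, 30.8%, 38.7% and 37.6% of all genes were. Tnfaip3, the feedback inhibitor A20, fell in all 4 wound comparisons, with log2 changes of -2.76 and -3.74 in control and -3.11 and -3.80 after imiquimod. Mean levels were 1690 CPM in day 30 control and 251 and 126 CPM in control wounds at 6 h and 12 h. After imiquimod they were 1120 CPM at day 30 and 130 and 80.6 CPM in wounds. The mean over day 6 control and 6 h control wounds was 224 CPM, so unwounded day 6 control lay below those wounds. With 12 h control wounds that mean was 162 CPM, so day 6 control lay above those. The falls are thus relative to day 30, and wounds were not tested against day 6 control.

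The genes most like each receptor were those with the highest Pearson r of log2 CPM over the 16 libraries, which share depth and group structure; r is given as a description. For Il1r1 these were Fgf13 (0.964), Ints6l (0.957) and Chst15 (0.955). For Il1r2 they were Slc6a4 (0.973), Krt32 (0.967) and Efemp1 (0.967). For Il1rap they were Mettl15 (0.975), Reep5 (0.975) and Psd3 (0.966). For Il18r1 they were Rufy4 (0.953), Shisa5 (0.952) and Lefty1 (0.951). For Il1rl2 they were Met (0.965), Trip11 (0.955) and Hcfc2 (0.933), and for Sigirr Csf1 (0.880), Ndor1 (0.876) and Engase (0.865). The rarer Il18rap was most like Psmd2 (0.966), Gk (0.965) and Psmc1 (0.954), and Il1rl1 most like Lhfp (0.931), Rnf219 (0.905) and Zfp143 (0.903).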

How the data were processed

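RNA from sorted cells was extracted with Trizol and a Zymo kit and made into libraries with the Illumina TruSeq RNA preparation, per the labels' protocols. The submitters' processing notes name STAR and mm10, with version and annotation release not given in the sources used here. What the authors deposited for each library is a list of raw gene counts in whole numbers, with no normalization. The strand setting behind these counts is unknown here, and they were read as unstranded.

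A symbol was found for 47224 of 47729 IDs, and those left over took between 0.0365% and 0.0887% of counts. Exon lengths were not used, so levels were not compared between genes. The test was edgeR's robust quasi-likelihood F test (edgeR 4.0.16 under R 4.3.3; TMM factors, filterByExpr by group) in 1 fit of 8 group means over 16 libraries with 8 residual degrees of freedom, adjusted by Benjamini-Hochberg over 17299 genes at a threshold of 0.05. The common biological coefficient of variation was 23%. SEs come from the F statistic. For single genes no exact permutation test was run, because 2 libraries against 2 cannot give a two-sided p below 0.333.

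Of the 16 comparisons, 2 (day 6 effect minus each control wound effect) were added after the values were seen. The members and lists were chosen with earlier results of these data known. Named list genes are up to 3 per direction, list and comparison with the largest change past the threshold; genes alike needed a mean of at least 1 log2 CPM. Alternatives were RLE scaling, 2 other filters, DESeq2 1.42.0, only the libraries compared, a replicate block, day 30 without the male-typed libraries, and leaving out each library.

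Replicates differed beyond counting error (chi-square per gene 20.6 to 184) and correlated at 0.967 to 0.99 across genes, which are not independent. After group means were removed, libraries with the same number showed r of 0.22 to 0.539 where they shared a time point and -0.285 to 0.115 where they did not; the numbers therefore pair libraries within a time point, from the data and not from the labels.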

Additional observations from a re-analysis of the deposited data

Results flagged for a closer look

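The effect of imiquimod differed between day 6 and day 30 for 3 receptors, by a test of the difference itself. The difference (day 6 effect minus day 30 effect, log2) was -3.65 ± 1.08 (SE) for Il1r2, -0.98 ± 0.31 for Il1r1 and -2.16 ± 0.48 for Il18r1, with adjusted p = 0.0384, 0.0384 and 0.00739 by edgeR. At day 6 all 3 were lower in both imiquimod libraries than in both control libraries, while at day 30 the libraries of the groups overlapped for each. Over 16 fits that each left out 1 library, the Il18r1 difference ran from -2.45 to -1.90 and passed in all. That of Il1r2 ran from -5.78 to -2.85 and was lost in 12, and that of Il1r1 ran from -1.17 to -0.88 and was lost in 6. Without the male-typed libraries the latter 2 did not pass either (adjusted p = 0.0878 and 0.175).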

How the results depend on the processing

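The 29 called receptor values were refitted under 8 alternatives and 16 fits that each left out 1 library. No value was had for 7 of them (Il18rap and Il1rl1) with the filter of 1 CPM in 2 libraries, which neither gene passed, for 2 (Il18rap in wounds after imiquimod) in the libraries compared, and for 10 that use day 6 in the 12 libraries after it. The 7 calls of Il18rap and Il1rl1 support no change. Most refits that left out 1 library dropped one outside the groups compared. Such refits kept the compared libraries and had little room to change, so the counts below say little about how firm a call is. Of the 677 values that were had, 623 kept their direction and their side of the threshold, 54 kept the direction but no longer passed, and 0 reversed. Il18r1 lost no call in any of these fits. Without a filter on low counts, edgeR called 1 receptor in 5 comparisons where none had passed. It was Il1r2 for imiquimod at 12 h (-1.10), 12 h against 6 h after imiquimod (-0.97), the difference in wound response at 12 h (-1.34) and the mean imiquimod effect (-0.41), and Il18r1 for 12 h against 6 h in control (-1.04). In that fit the SE of Il1r2 for imiquimod at 12 h was 0.19 against 0.75; the cause was not tested. The same fit called 4 receptors for day 6 minus the 6 h wound effect and 3 for day 6 minus the 12 h wound effect. Over all genes it called 3900 and 2860, against 3302 and 1936 in the main fit. For 12 h control wounds the count was 3 with the filter of 1 CPM in 2 libraries, where Il18rap and Il1rl1 went untested, and 2 without the male-typed libraries. The late change in control wounds gave 2 receptors with the replicate block, 1 by DESeq2 and 1 in the libraries compared. Over all genes these fits called 1296, 698 and 316, against 112 in the main fit. The day 6 against day 30 difference gave 1 without the male-typed libraries. Day 6 minus the 6 h wound effect gave 4 by DESeq2 and 1 in the libraries compared, with 4089 and 1469 of all genes against 3302 in the main fit. Against 12 h wounds the replicate block gave 2, with 4232 of all genes against 1936. The replicate block changed 1 other call, Il1r2 at 6 h after imiquimod. Over the fits that left out 1 library, counts ran from 4 to 5 (day 6), 2 to 5 and 1 to 6 (control wounds, 6 h and 12 h), 3 to 6 and 4 to 6 (wounds after imiquimod), 1 to 3 (day 6 against day 30), and 1 to 5 and 1 to 3 (day 6 minus the wound effects), and were 0 in the other 8 comparisons. On raw totals, 7 levels moved by more than their SD, among them day 6 control Il1r2 at 201 CPM. Depth limits Il18rap and Il1rl1, whose day 30 groups hold 0 to 4 reads.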
